A study of Mus musculus with 3 samples.

Results

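MHC class II antigen presentation genes were followed across the 3 arrays of a mouse muscle study. The genes were taken by name: non-control probes whose gene name in the scanner files is H2-Aa, H2-Ab1, H2-Ea, H2-Eb1, H2-DMa, H2-DMb1, H2-DMb2, Cd74, Ciita or Ctss. This gave 9 of the 10 listed genes, with 14 probes on 23 spots, out of 27665 genes on the arrays. No probe carries the name Ciita. The arrays hold 1 probe under its older symbol C2ta, which is given apart and is not counted among the 9.

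The study compared male mice, 6 weeks of age by the labels, after 14 days under 3 conditions. Intact mice did not swim and ate normal food, control mice swam and ate normal food, and the third group swam and ate food with 0.5% Chlorella powder, a unicellular green alga. RNA of 10 mice per group was pooled and measured on 1 single-colour Agilent array, so each group is 1 sample, there is no replicate, and no test between groups was possible. The strain of the mice, which muscle was taken and the swimming schedule are not given in the sources used here. The 3 arrays occupied 3 positions of 1 slide scanned once, so position and group cannot be told apart. All 12 skeletal muscle fibre markers were well above background on every array.

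MHC class II molecules show peptides from endocytosed proteins to CD4+ T cells. An alpha and a beta chain assemble in the endoplasmic reticulum around the invariant chain, Cd74, which directs them to endosomes. There cathepsin S, Ctss, trims the invariant chain, and the DM heterodimer exchanges its last fragment for an antigen peptide. B cells, dendritic cells and many macrophages carry the class II chain, Cd74 and DM genes constitutively under the transactivator Ciita. Muscle fibres of healthy animals show little of them.

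Across the 9 genes the nonswimming and swimming arrays on normal food were alike in level, and the Chlorella array was lower. In swimming against nonswimming mice the median log2 ratio of the 9 was 0.002, with 4 genes below 0 and 5 above it. In Chlorella against normal food, both in swimming mice, all 9 ratios were below 0, between -0.98 and -0.47, with a median of -0.85. Ratios are differences of log2 processed signal after each array was scaled to its 75th percentile, a gene is represented by its brightest probe, and the error beside it comes from the spot errors that the scanner software estimates, which hold no difference between mice. In a bulk sample, fewer cells of a type and less RNA per cell cannot be told apart.

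**Figure D1:**
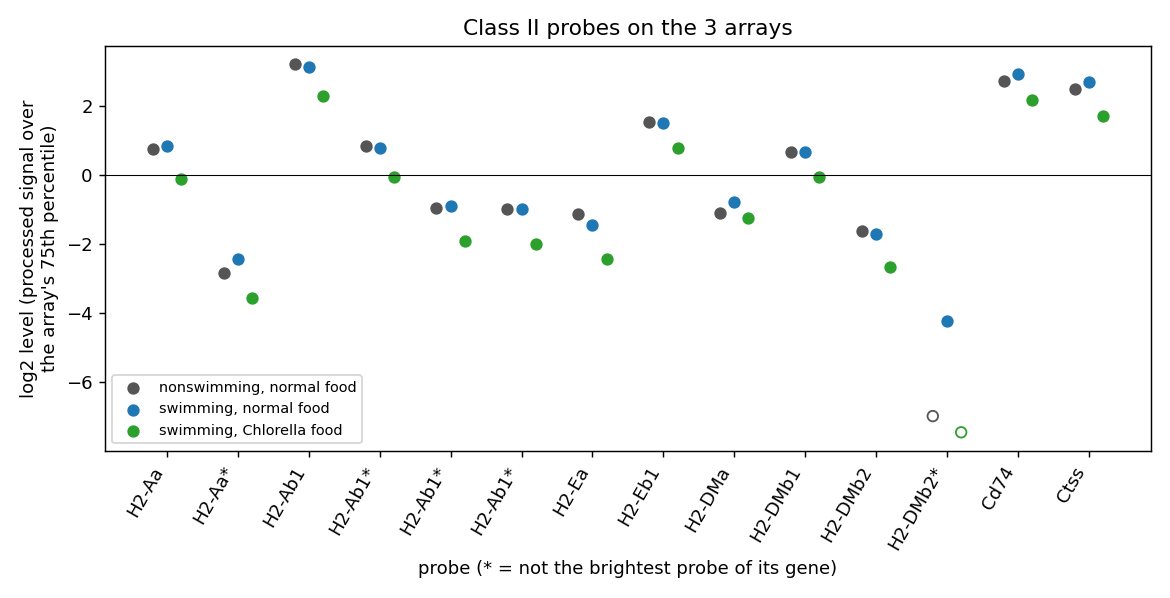
Log2 level of each of the 14 class II probes (processed signal over the 75th percentile of its array) on the nonswimming, swimming and Chlorella arrays, 1 point per array; open circles are signals not well above background. In all 13 probes that were well above background on every array, the Chlorella point is the lowest of the 3.

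Class II genes share a promoter module, the X and Y boxes. RFX proteins bind the X box and NF-Y the Y box, and Ciita docks on them. The promoters below show where these letters stand in 4 members. RefSeq promoter windows of GRCm38.p6, 250 bases before to 50 after a gene's start, were matched for 6 members: H2-Aa, H2-Eb1, H2-DMa, H2-DMb1, H2-DMb2 and Ctss. The 150 bases before the start of 4 of them are printed 5′ to 3′ on the gene's strand. Capitals mark TGATTGG, the Y box, and before it AACNGATGATG, an X box with part of its neighbour, or in H2-Aa the palindrome TGACGTCA in that place.
H2-Aa, chr17:34287824-34287973, minus strand: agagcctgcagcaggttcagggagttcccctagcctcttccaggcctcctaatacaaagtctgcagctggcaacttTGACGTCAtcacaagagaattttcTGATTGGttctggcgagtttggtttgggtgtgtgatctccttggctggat
H2-Eb1, chr17:34305717-34305866, plus strand: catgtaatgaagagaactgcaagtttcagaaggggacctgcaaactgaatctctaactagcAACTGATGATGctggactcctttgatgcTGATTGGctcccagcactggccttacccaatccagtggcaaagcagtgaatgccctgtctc
H2-DMb1, chr17:34153041-34153190, plus strand: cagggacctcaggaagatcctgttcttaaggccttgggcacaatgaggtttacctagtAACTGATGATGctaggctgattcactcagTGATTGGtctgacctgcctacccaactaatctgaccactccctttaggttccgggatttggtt
H2-DMb2, chr17:34145099-34145248, plus strand: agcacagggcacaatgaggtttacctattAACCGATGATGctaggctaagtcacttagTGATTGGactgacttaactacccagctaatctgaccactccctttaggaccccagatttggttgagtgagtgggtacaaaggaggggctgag

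From the end of AACNGATGATG to the Y box there were 17 bases in H2-Eb1 and 18 in both DM beta genes. In H2-Aa there were 16 bases from the end of TGACGTCA, a different stretch, so this spacing is not the same measure. The Y box began 50 bases before the start in H2-Aa, 61 in H2-Eb1, 63 in H2-DMb1 and 92 in H2-DMb2. CTGATTGG was present in H2-Aa and H2-Eb1 and, on either strand, in 4.10% of all 32851 windows. TGATTGG, which it contains, was in 4 of the 6 members and 7.82% of windows, and its core ATTGG in 5 of 6 and 37.4%. AACNGATGATG stood in 3 members and 0.0609% of windows, and TGACGTCA in 1 member and 1.79%. Both strands were searched. The letters TGATTGG, AACNGATGATG and TGACGTCA were written after these windows had been read, so their presence in the members is a description. Of the other class II genes, H2-Oa, H2-Ob and H2-Eb2 also held TGATTGG. Ctss held none of these letters in its window, which says only that they are not there.

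The classical chains bind the antigen peptide. H2-Aa, the alpha chain of the A molecule, had processed signals of 478.6, 529.7 and 219.5 intensity units on the nonswimming, swimming and Chlorella arrays. The Chlorella array was the low one, and the log2 ratio against the swimming array was -0.96 ± 0.20, a 1.94-fold lower level. A second, dimmer H2-Aa probe had signals of 40.3, 54.4 and 20.0 on the same arrays and a ratio of -1.13 ± 0.23. Its swimming against nonswimming ratio, 0.39 ± 0.21, was further from 0 than the 0.10 ± 0.20 of the brighter probe.

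H2-Ab1, the beta partner of H2-Aa, was measured by 4 probes. The scanner files place the brightest at bases 32346939 to 32346998 of chromosome 17, in a build that the sources used here do not give. Its signals were 2652 without swimming, 2618 with swimming and 1173 with Chlorella. The normal food arrays differed by -0.06 ± 0.20, while Chlorella against normal food gave -0.85 ± 0.20. The other 3 probes gave -0.83, -1.02 and -1.02 in that comparison, so the 4 probes span less than 1 scanner error.

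One of these H2-Ab1 probes is printed 10 times on each array and shows the spread of the measurement itself. Its mean signal without swimming was 515.2 ± 13.3 (SD, n = 10 spots), with swimming 503.7 ± 14.8, and with Chlorella 228.9 ± 9.35. The spots of the normal food arrays overlapped, from 501.0 to 539.1 and from 478.1 to 521.0. The Chlorella spots, from 217.0 to 251.5, lay below all of them. After scaling, the spot ratios of Chlorella against normal food in swimming ran from -0.86 to -0.70. These spots share 1 RNA pool per group and are no biological replicates.

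**Figure D2:**
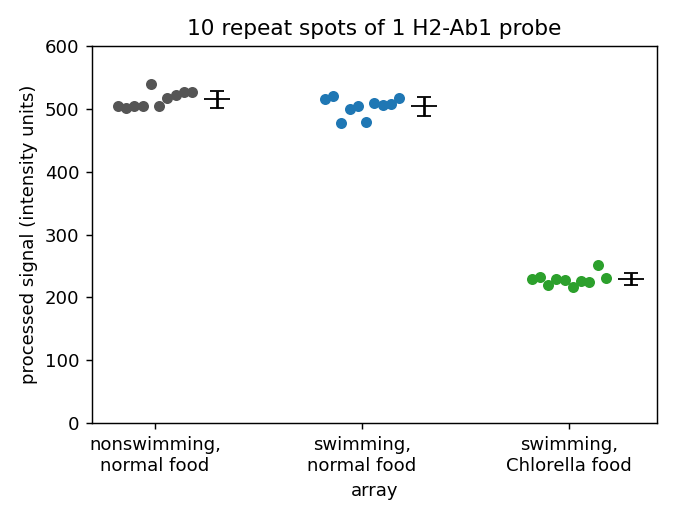
Processed signal of the 10 repeat spots of 1 H2-Ab1 probe on each array, before scaling between arrays; coloured points are spots and black bars the mean ± SD over 10 spots. The Chlorella spots lie between 217.0 and 251.5, below the 478.1 to 539.1 of the normal food arrays.

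H2-Eb1, the beta chain of the E molecule, had signals of 838.2, 842.6 and 410.2 on the nonswimming, swimming and Chlorella arrays. Its ratio was -0.04 ± 0.20 for swimming and -0.73 ± 0.20 for Chlorella against normal food. H2-Ea, the alpha chain, had signals of 131.8, 107.9 and 44.1. By brightest probes it was the only classical chain whose swimming ratio, -0.33 ± 0.21, exceeded its scanner error, and its Chlorella ratio was -0.98 ± 0.22. With normexp background correction that ratio was -0.41. The RefSeq table of assembly GRCm38.p6, made from the strain C57BL/6J, lists H2-Ea as a transcribed pseudogene. Mice of that strain do not make the E alpha chain because of a promoter deletion, while several other strains do. The H2-Ea probe was well above background on all 3 arrays.

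DM removes the last invariant chain fragment and edits the bound peptide. H2-DMa, its alpha chain, had signals of 134.0, 172.1 and 100.1 on the nonswimming, swimming and Chlorella arrays. Its Chlorella ratio against the swimming array, -0.47 ± 0.21, was the one nearest to 0 among the 9 genes, and its swimming ratio of 0.32 ± 0.20 was the highest of them. H2-DMb1, a beta chain, had signals of 454.7, 469.8 and 230.4 and a Chlorella ratio of -0.72 ± 0.20.

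H2-DMb2, the near copy of H2-DMb1 beside it in the genome, had signals of 93.1, 89.5 and 37.3 on its brighter probe and a Chlorella ratio of -0.95 ± 0.22. Whether probes of these copies detect each other's RNA was not tested. A dimmer H2-DMb2 probe was well above background on the swimming array alone. There its signal was 15.8, against 2.25 on the nonswimming and 1.35 on the Chlorella array. That is at least 2.37-fold higher in swimming than in nonswimming mice and at least 2.03-fold lower with Chlorella, each taken against the lowest signal that was well above background on the dim array. The first bound does not match the brighter probe, whose swimming ratio was -0.10 ± 0.21. In the authors' deposited table H2-DMb2 is the one member with a positive difference between the Chlorella and swimming arrays: its value for the swimming array is -2.93, against 0.27 and -0.80 on the nonswimming and Chlorella arrays.

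Cd74 and Ctss lie outside the class II region, Cd74 on chromosome 18 and Ctss on chromosome 3. The Cd74 signals were 1899.9, 2232.6 and 1085.2 on the nonswimming, swimming and Chlorella arrays. Those of Ctss were 1628, 1903 and 782.7. In both genes the swimming array was the highest, by 0.19 ± 0.20 for Cd74 and 0.18 ± 0.20 for Ctss, which is within the scanner error. Against that array the Chlorella array was the low one, with ratios of -0.73 ± 0.20 for Cd74 and -0.97 ± 0.20 for Ctss.

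The transactivator itself was near the detection limit. The C2ta probe, which stands for Ciita, had signals of 16.1 on the nonswimming and 25.1 on the swimming array, a ratio of 0.59 ± 0.27. On the Chlorella array its signal of 5.15 was not well above background. This makes it at least 3.23-fold below the swimming level and at least 2.14-fold below the nonswimming level, and both bounds rest on 1 dim probe.

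**Figure D3:**
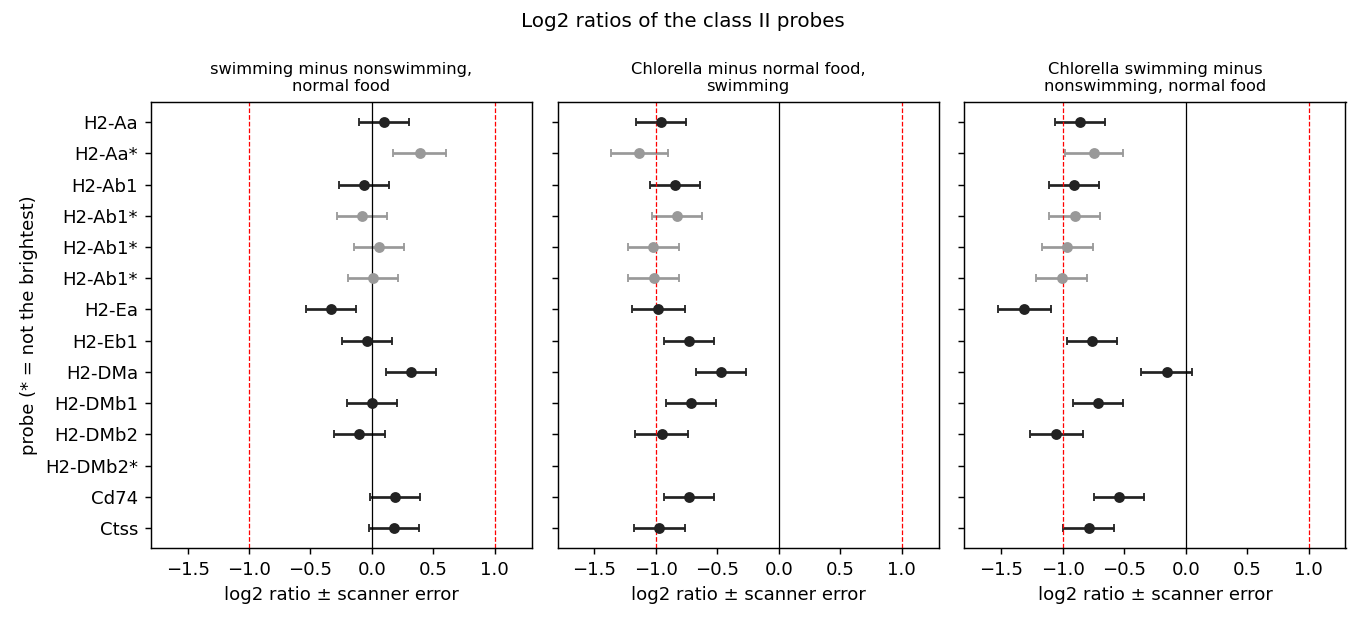
Log2 ratio of each class II probe in the 3 comparisons, with the scanner software's error as bars; black points are the brightest probe of a gene, grey points its other probes, and red dashed lines mark 2-fold. Probes lie around 0 in swimming against nonswimming and between -1.13 and -0.47 in Chlorella against normal food; the dimmer H2-DMb2 probe has no ratio.

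Set against all genes, the 9 members lay low in the Chlorella comparison and near the centre in the swimming comparison. Between swimming and nonswimming mice 0 of 9 members differed by 1.5-fold, where 9.35% of 15661 genes measured on both arrays were higher and 4.4% lower by that size, and 0 of 9 by 2-fold, where 6.21% of genes did. The 4 members below 0 compare with 55.1% of genes. The median ratio of all these genes was -0.04. In Chlorella against normal food 8 of 9 members were at least 1.5-fold lower, where 9.17% of 15508 genes were. The exception was H2-DMa. With normexp 6 of the 9 passed. None of the 9 was 2-fold lower by its brightest probe, where 4.86% of genes were, though several lie close to that line. All 9 were below 0, as 40.1% of genes were, and the median of all genes was 0.08. The members and the 1.5-fold threshold were chosen with this pattern known, so these counts describe it and do not test it.

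**Figure D4:**
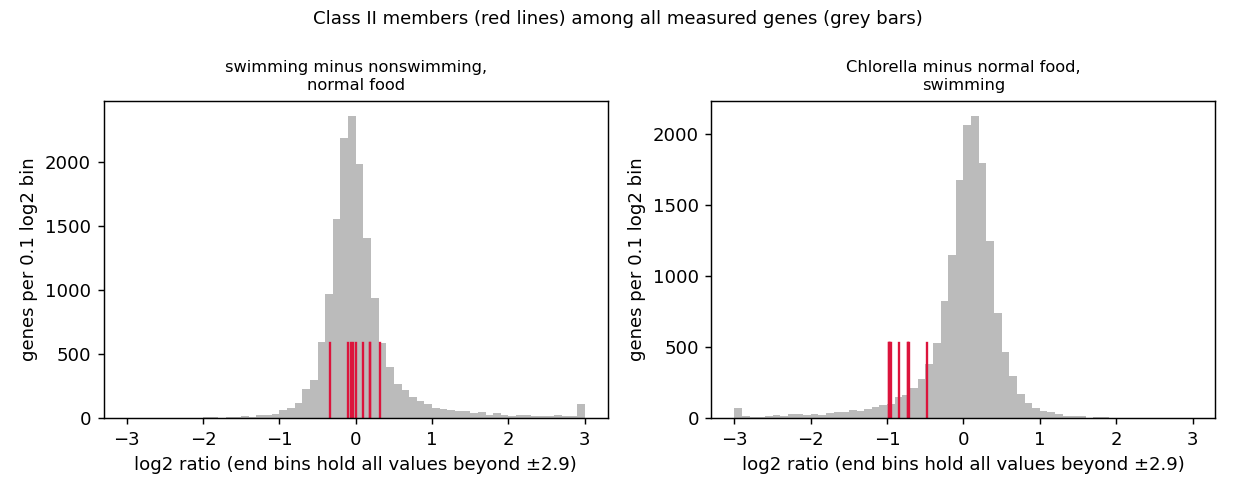
Number of genes per 0.1 of log2 ratio (grey bars) with the 9 class II members as red lines, for swimming against nonswimming and for Chlorella against normal food in swimming. The members surround the centre of all genes in the first panel and lie from -0.98 to -0.47 in the second, left of it.

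The members were also close to each other. In the Chlorella comparison their ratios had an SD of 0.17 around their mean, against 0.59 over all genes. It was 0.19 against 0.58 in swimming against nonswimming mice, and 0.32 against 0.44 in Chlorella swimming against nonswimming mice. The members were chosen with their pattern known, so the smaller spread is a description and was not tested. The scanner software's error of a single ratio was 0.20. The ratios of the 10 repeat spots of 1 H2-Ab1 probe had an SD of 0.05. The SD of the members in the Chlorella comparison lay above that of these spots and below the scanner error. The range of the 9 held 6.34% of genes. By role, the median ratio was -0.90 for the 4 classical chains, -0.72 for the 3 DM chains, and -0.85 for Cd74 and Ctss.

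Chlorella swimming mice against nonswimming mice on normal food gave wider differences among the members. This comparison shares an array with each of the others. Here 7 of 9 members were at least 1.5-fold lower, where 5.76% of 15336 genes were, and 2 were at least 2-fold lower, where 1.49% were. All 9 were below 0, where 45.3% of genes were. The 2 were H2-Ea at -1.31 ± 0.22 and H2-DMb2 at -1.05 ± 0.22. With normexp background correction neither passed 2-fold, at -0.65 and -0.43. H2-DMa had the ratio nearest to 0, at -0.16 ± 0.21, and Cd74 one of -0.54 ± 0.20. H2-Ea and H2-DMa were the lowest and highest of the 9 here, and the difference between these extremes was -1.16 ± 0.30. With normexp their ratios were -0.65 and -0.13. The median was -0.79, and that of all genes 0.04. On the brightest probes the Chlorella array was the lowest of the 3 for 9 of 9 members, as it was for 27.8% of genes measured on all 3. The highest was the swimming array for 5 members and the nonswimming array for 4.

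The genes that act through the X and Y boxes lay nearer to 0 than the members. Of 17 transcription genes listed, 15 were measured in Chlorella against normal food, with a median ratio of 0.001. Of the 15, 1 was at least 1.5-fold lower, where 9.17% of all genes were, and none was higher by that size. Rfxap and Rfxank, subunits of RFX, had ratios of 0.05 ± 0.20 and -0.01 ± 0.20. Rfx5, the third subunit, had -0.36 ± 0.27 on dim signals of 27.6, 27.6 and 17.3. Nfya, a subunit of NF-Y, had -0.32 ± 0.21 and the kinase Jak1 0.34 ± 0.20.

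The measured gene past 1.5-fold was Irf1, an interferon-induced factor that activates a promoter of Ciita. Its signals were 1561 on the nonswimming, 1521 on the swimming and 755.8 on the Chlorella array, and its ratio was -0.70 ± 0.20. Spi1, the myeloid and B cell factor PU.1, had signals of 9.70, 13.1 and 3.88. The last was not well above background, which makes Spi1 at least 1.69-fold lower with Chlorella than with normal food in swimming mice. Ifng, the cytokine that induces Ciita in many cells, had dim signals of 26.4, 6.53 and 5.12, of which the last was not well above background. Its ratio in swimming against nonswimming mice was -2.06 ± 0.36.

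The other class II genes were mostly too dim to compare. H2-Oa, a chain of the DM inhibitor DO of B cells, was well above background on the swimming array alone, with signals of 4.51, 30.4 and 2.82 on the nonswimming, swimming and Chlorella arrays. It was thus at least 4.56-fold higher in swimming than in nonswimming mice and at least 3.91-fold lower with Chlorella. H2-Ob, its partner, was not well above background on any array. H2-Eb2 went the other way, well above background on the Chlorella array alone with a signal of 20.7, at least 4.45-fold above the swimming array. Marchf1, a ubiquitin ligase that removes class II from the surface of antigen-presenting cells, had a Chlorella ratio of -1.31 ± 0.22, while its relative Marchf8 had 0.22 ± 0.20.

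Endosomal proteases and other processing genes were all measured, 14 of 14, with a median of -0.19 in the Chlorella comparison. Of these 2 were at least 1.5-fold lower, where 9.17% of all genes were, and none was higher. Ctsk had a ratio of -0.66 ± 0.20 and Ctsh one of -0.61 ± 0.20. Lgmn, the asparaginyl endopeptidase that starts invariant chain cleavage, followed at -0.56 ± 0.20, and Cstb, a cathepsin inhibitor, at -0.36 ± 0.20. Ctss, at -0.97, was below every one of the 14. Lgmn also had a swimming against nonswimming ratio of -0.93 ± 0.20, unlike the members.

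Costimulatory molecules and T cell partners were dim, and 7 of 12 were measured in the Chlorella comparison. Of the 7, 4 were at least 1.5-fold lower, where 9.17% of all genes were, and none was higher, with a median of -0.61. Pdcd1lg2, which encodes PD-L2 and is not among the 7, was well above background on the Chlorella array alone, with signals of 1.31, 1.88 and 23.6, and thus at least 5.06-fold higher there than on the swimming array. Cd40 had a ratio of -0.85 ± 0.30, Cd86 one of -0.70 ± 0.35 and Cd274, which encodes PD-L1, one of -0.77 ± 0.21. Cd4, the coreceptor of T cells that see class II, had 0.44 ± 0.31 on signals of 13.0, 12.4 and 13.5.

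Class I loading genes, which supply the parallel route for cytosolic peptides, had smaller differences than class II in Chlorella against normal food. In swimming against nonswimming mice their median was 0.18, against 0.002 for class II. Of 15 measured genes 3 were at least 1.5-fold lower with Chlorella, where 9.17% of all genes were, and none was higher. The Chlorella median was -0.22. The 3 were the peptide transporter subunit Tap1 at -0.84 ± 0.22 and the immunoproteasome subunits Psmb9 at -0.68 ± 0.20 and Psmb8 at -0.62 ± 0.20. H2-D1, a class I heavy chain, had -0.54 ± 0.20. Tap1, Psmb9 and Psmb8 are neighbours of the class II genes. Between the outermost class II probes on chromosome 17, from 32217439 to 32421794 as the scanner files number them, the brightest probes of 7 other named features were placed and 4 were measured. The fourth, Tap2, had a Chlorella ratio of -0.03. In swimming against nonswimming mice these 4 neighbours were higher, with ratios of 0.41 for Psmb9, 0.22 for Tap1, 0.43 for Psmb8 and 1.23 for Tap2, where the class II genes of the same stretch lay between -0.33 and 0.32.

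Markers of the cells that carry class II differed between the arrays in different ways, and their part in the result was not tested. Among B cell genes 12 were on the array and 7 were measured in swimming against nonswimming mice. Of the 7, 6 were at least 2-fold higher with swimming, where 6.21% of all genes differed by 2-fold in either direction. The median was 3.45. The summed level of the 12 was 2.08, 9.25 and 1.79 times the 75th percentile on the nonswimming, swimming and Chlorella arrays, where 5, 1 and 7 of them were not well above background. Without Blnk, the largest of them, the other 11 summed to 0.52, 6.15 and 0.40. Cd79b, part of the B cell receptor, had signals of 68.6, 775.6 and 42.7. Pax5, which defines the lineage, was well above background on the swimming array alone. The summed level of the 9 class II members was 29.1, 30.4 and 17.2 on the nonswimming, swimming and Chlorella arrays.

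Macrophage and monocyte markers were all measured, 18 of 18. Their median ratio was 0.04 in swimming and -0.75 in Chlorella against normal food, beside 0.002 and -0.85 for the members. With Chlorella 11 of the 18 markers were at least 1.5-fold lower, where 9.17% of all genes were. Their summed level was 92.4, 127.1 and 51.7 on the nonswimming, swimming and Chlorella arrays. Lyz2 made up most of it, and the other 17 summed to 18.7, 18.3 and 11.8. Adgre1, which encodes F4/80, had signals of 422.7, 390.3 and 161.1 and a Chlorella ratio of -0.97 ± 0.20, and Cd68 one of -0.99 ± 0.21. All 18 were below 0, where 40.1% of all genes were, but by different sizes. Cd163, Lyve1 and Cd14 lay near 0, at -0.02 ± 0.20, -0.07 ± 0.20 and -0.09 ± 0.20. Mrc1 had -0.63 ± 0.21, C1qa -0.53 ± 0.20 and Mertk -0.36 ± 0.22. Ptprc, the leukocyte antigen CD45, Ccr2, Itgam and Lyz2 were lowest, between -2.07 and -1.45, and these are also carried by other leukocytes. They were higher with swimming, in that order by 1.37 ± 0.20, 0.45 ± 0.21, 0.98 ± 0.22 and 0.56 ± 0.20. In Chlorella swimming against nonswimming mice they had -0.70, -1.45, -0.81 and -0.88, where the median of the 18 markers was -0.73.

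Of 12 dendritic cell markers, 9 were measured in the Chlorella comparison, with a median of -0.41. Of the 9, 3 were at least 1.5-fold lower, where 9.17% of all genes were, and none was higher. By sign 6 were below 0, where 40.1% of all genes were, and 3 above. Clec10a, a lectin of dendritic cells and macrophages, had signals of 942.6, 873.4 and 446.8 and a ratio of -0.66 ± 0.20. Itgax, which encodes CD11c, had -0.95 ± 0.31, Batf3 -0.52 ± 0.22 and Siglech, of plasmacytoid cells, -1.05 ± 0.36. Siglech was higher on the swimming array, by 0.85 ± 0.31 over nonswimming. Its ratio in Chlorella swimming against nonswimming mice was -0.20 ± 0.41. Ccr7, not among the 9, was at least 2.58-fold lower with Chlorella. Clec9a was not well above background on any array, and Zbtb46 had 0.38 ± 0.21. The summed level was 5.40, 4.85 and 3.49, and without Clec10a 2.11, 1.89 and 1.61.

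T cell genes had a median of 1.89 for swimming over 5 measured genes and of -1.10 for Chlorella over 4, and summed levels of 0.43, 1.11 and 0.41. Neutrophil genes had a median of 4.03 for swimming and of -6.82 for Chlorella, with summed levels of 16.2, 275.3 and 3.44, and without S100a9 of 3.98, 68.3 and 0.61. Muscle fibre genes had medians of -0.10 and 0.36, and their summed level was 5728, 4873 and 6348 on the nonswimming, swimming and Chlorella arrays. Their swimming ratios ran from -1.04 to 0.21, with Mb lowest and Myh1 at -0.59 ± 0.20. The Chlorella ratios ran from 0.24 to 0.86. Farthest from 0 were Ttn at 0.86, Myh1 at 0.70, Myh2 at 0.65 and Mb at 0.65, each ± 0.20. These values depend on the scaling, whose 75th percentile was 295.0 on the swimming and 237.8 on the Chlorella array. Before scaling, Pvalb had signals of 61864, 60690 and 59816 on the 3 arrays, and Ttn 7701, 9183 and 13397.

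**Figure D5:**
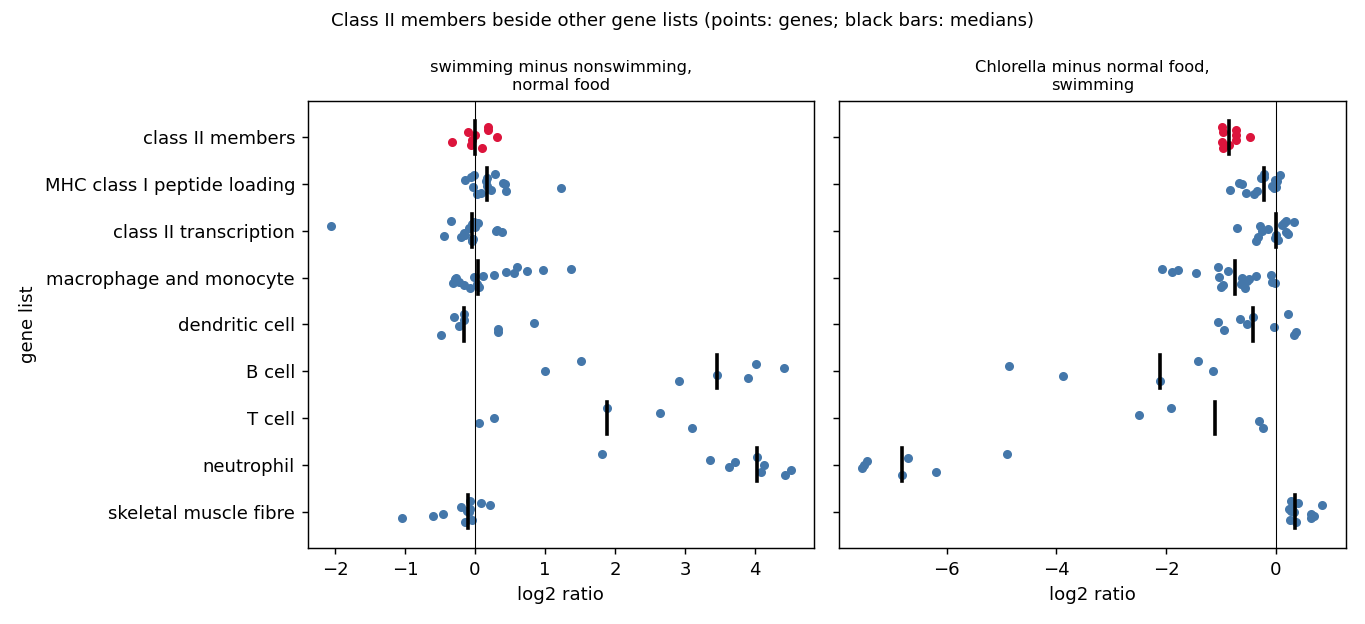
Log2 ratios of the genes of 9 lists in swimming against nonswimming and in Chlorella against normal food in swimming (points are genes measured on both arrays, black bars the list medians, class II members in red; the horizontal scales of the panels differ). The medians are 0.002 and -0.85 for class II, 0.04 and -0.75 for macrophages, and 3.45 and -2.11 for B cells.

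The genes whose levels were most like the members over the 3 arrays were sought among 9258 other named genes with a signal of at least 100 on each array, by the distance from the members' median profile. They were Fcgr3, a receptor for immunoglobulin G, Emp3, Cfb, which is complement factor B, Mmp3, Ctso and Cyp2f2. Fcgr3 had signals of 713.8, 746.8 and 335.4 on the nonswimming, swimming and Chlorella arrays. The 6 genes had Chlorella ratios between -0.87 and -0.77 and swimming ratios between -0.07 and 0.09. The farthest member, H2-DMa, lay at a distance of 0.49, within which 7.95% of the 9258 genes lay. With 3 arrays such likeness is a description.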

How the data were processed

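Total RNA of muscle, pooled from 10 mice per group, was put on 1 Agilent array for each group after Cy3 labelling, per the labels' protocols. The deposited scanner files hold intensity values, for which the submitters' processing notes name Agilent Feature Extraction 9.5: processed signal, its error, mean and background intensity, and flags. The authors' deposited table holds log2 values of 13683 spots, including 9 members; what each probe was centred on stays unknown, so only differences were used, and its column medians were 0.008, -0.005 and 0.010. Of it, 0 columns were left without a sample.

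Control spots and spots with a feature outlier flag were left out and spots of a probe averaged, leaving 41169 probes. Signals were scaled to the 75th percentile of each array (285.9, 295.0 and 237.8) and taken as log2. A gene counted as measured where its brightest probe was well above background on both arrays. Probes were named by accession (22948), symbol (6658) or older symbol (3109) in RefSeq. The other 8454 had no match there, kept the name in the scanner files and were counted as genes under it. Well above background were 23841, 24857 and 23448 probes, and 0 were saturated. The number of arrays limits the precision. limma 3.58.1 made the alternative normalizations, Python 3.11.15 the rest, and the steps were tested on simulated data. Named genes were all members, the RFX and DO genes, and up to 4 genes per list. Those 4 lay farthest from 0 in the Chlorella comparison and were measured on all arrays. Ifng, Spi1, Blnk, S100a9, Ccr7, H2-Eb2, Tap2, Pdcd1lg2, Pax5, Adgre1 and Cd68 were named after their values were seen. So were Cd163, Lyve1, Cd14, Mrc1, C1qa, Mertk, Clec9a, Zbtb46 and Pvalb. Members, lists and the 1.5-fold threshold were chosen with earlier results of these data known.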

Additional observations from a re-analysis of the deposited data

How the results depend on the processing

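Over 9 alternatives the class II median stayed below 0 in Chlorella against normal food, at -0.95 to -0.68, and in Chlorella swimming against nonswimming, at -0.82 to -0.66. In swimming against nonswimming it took either sign, at -0.15 to 0.18. The count of members at least 1.5-fold lower with Chlorella against normal food, 8 of 9, was 6 with normexp, 7 with median centring, 6 of 7 with the stricter filter, and 7 with the authors' values, which put 1 higher; it was 8 under the others. The counts at 2-fold varied more. For Chlorella against normal food, where none passed, 1 member passed with quantile normalization, 3 with cyclic loess, 4 with the percentile over probes well above background, 2 with the mean over probes, and 3 with the authors' values. Of the last 3, 2 were lower and H2-DMb2 was higher. For Chlorella swimming against nonswimming, where 2 passed, 0 passed with normexp or the stricter filter, which leaves 7 members, and 1 with the mean over probes. For swimming against nonswimming, where none passed either 2-fold or 1.5-fold, 1 passed both with the mean over probes and 1 with the authors' values, each time H2-DMb2, with ratios of 1.33 and -3.20. With the authors' values its Chlorella ratio was 2.13, against -0.95 from the signals; the cause was not tested. With the mean over probes it was -2.09, since the dim probe enters. With normexp, H2-DMb2 had -0.37 and H2-Ea -0.41. Median centring and leaving out the filter moved the median of all genes by over 0.1, to 0.21 and 0.20 in Chlorella against normal food; relative to all genes the class II median was lower by -1.04 to -0.76 over the alternatives. No paired analysis was possible because each group has 1 array. The slide was not tried as a block, since all arrays share 1 slide. C2ta, the dim H2-DMb2 probe, H2-Oa, H2-Ob and H2-Eb2 are limited by their signal over background.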

Other observations

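Other probes describe class II transcripts under clone names and belong to no member. One, for a clone described as a class II antigen from liver, had signals of 78.3, 89.7 and 45.6 on the nonswimming, swimming and Chlorella arrays and a Chlorella ratio of -0.66 ± 0.21. The other, for a bladder clone described as similar to the E beta chain and placed on chromosome 6, had signals of 3488, 3466 and 3573 and a ratio of 0.35 ± 0.20, unlike every member.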
